A study of Homo sapiens with 54 samples.

Results

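HCT-116 colorectal carcinoma cells that had been made resistant to 5-fluorouracil (5-FU) were compared with sensitive HCT-116 cells while both were under the drug. The members are the 6 libraries labelled HCT-116 and 5-FU, 3 from resistant and 3 from sensitive cells, of 54 libraries in the series. In both groups the cells received 10 μM 5-FU for 24 h. The question was which genes differ between the 2 lines under the drug, and whether they differ because the sensitive cells respond to it. To separate these, 4 more groups of 3 HCT-116 libraries were used: sensitive and resistant cells given 10 μM uracil for 24 h as the control, and sensitive and resistant cells given 5-FU and then irradiated with X-rays. HCT-116 is a mismatch repair-deficient line. The resistant cells were obtained by growing the line in rising 5-FU concentrations over months. They were kept in medium with 5-FU at a higher concentration than the 10 μM of the treatment. Whether the 3 libraries of a group came from separate selections, and whether the resistant cells given uracil had been taken off the drug beforehand, is not stated in the sources used here. The study describes the triplicates as biological.

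5-FU is a pyrimidine analogue. Its deoxynucleotide form blocks thymidylate synthase, the enzyme that makes thymidylate for DNA, and its other forms enter RNA and DNA. In cells with a working p53 pathway the resulting damage and nucleotide shortage stabilise p53, which switches on genes that halt the cell cycle or start cell death, such as CDKN1A. Through CDKN1A, p53 also keeps the DREAM repressor complex on the promoters of cell cycle genes, whose mRNAs then fall. KRAB zinc finger proteins, which the study followed, are a large family of DNA-binding repressors.

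The 6 libraries held 50398714 to 78905042 estimated counts, and 16350 to 16967 genes reached 1 TPM (a level per transcript length, scaled to the same total in every library). Of 64 genes that mark HCT-116 among the 3 sensitive lines of the series, 62 (96.9%) stood at 1 TPM or more in the resistant 5-FU libraries. None of the 20 DLD-1 or 12 HT-29 marker genes did. The epithelial markers summed to 4782 to 4867 TPM in the sensitive and 2629 to 2726 TPM in the resistant 5-FU libraries. Under uracil the sums were 2753 to 2991 TPM in sensitive and 2715 to 2963 TPM in resistant cells. Markers of fibroblasts summed to 26.5 to 31.2 and 12.72 to 13.97 TPM, those of leukocytes to 8.64 to 10.1 and 11.6 to 14.8 TPM, and those of endothelium to 3.61 to 5.82 and 2.40 to 3.95 TPM, and 8 of 9, 7 of 9 and 5 of 7 of these genes stayed under 1 TPM in all 6 libraries. Mitochondrially encoded genes took 14.5% to 15.1% of TPM in sensitive and 11.8% to 12.4% in resistant cells under 5-FU. Under uracil they took 7.33% to 9.95% in sensitive and 11.83% to 12.95% in resistant cells. The part of that shift in the results below was not tested. When the counts of each replicate pair were compared, chi-square divided by its degrees of freedom was 2.87 to 3.74 in the 5-FU groups. Resistant uracil replicate 3 stood apart, at 9.67 and 11.1 from the other libraries of its group, which were 3.35 from each other. Resistant irradiated replicate 3 did so at 10.3 and 13.9 against 4.15. The pairs of sensitive libraries were also wider than in the 5-FU groups, at 6.41 to 13.8 under uracil and 5.78 to 12.6 with irradiation.

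Under 5-FU, 1212 genes were higher and 1845 lower in resistant cells, 5.28% and 8.03% of the 22975 genes tested (quasi-likelihood F-test in edgeR, called at an adjusted p no larger than 0.01 by Benjamini-Hochberg and a change of 2-fold or more). Under uracil the same test called 957 genes higher and 1562 lower in resistant cells, 4.17% and 6.8%. The response of the sensitive cells to 5-FU comprised 1100 genes that rose (4.79%) and 771 that fell (3.36%). In resistant cells no gene passed in either direction (0.0%), although 1878 genes had an unadjusted p under 0.05, DESeq2 called 1 gene, and without resistant uracil replicate 3 edgeR called 2 that rose and 1 that fell. Without a fold change threshold, and with all libraries kept, the resistant response held 0 genes at an adjusted p of at most 0.01. The sensitive response held 4045 that rose and 5597 that fell. Resistant uracil replicate 3 stood at the resistant 5-FU level in some genes, such as GDF15, INSIG1 and EGR1 (below). Whether resistant changes under 2-fold pass without that library was not tested, so the 0 does not show that resistant cells did not respond. The difference between the 2 responses, tested as an interaction term, passed for 4196 genes in the direction of the resistant cells being higher (18.3%) and 2618 lower (11.4%). Of these calls 61.6% were higher, and 51.5% with scaling by library size alone. These comparisons share libraries. In each gene the difference under 5-FU equals the difference under uracil plus the resistant response minus the sensitive response, so their values are set side by side and are not independent.

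Each called gene was then placed by 2 tests. A gene was termed standing when resistant and sensitive cells already differed the same way under uracil, and drug-dependent when the interaction term passed in the same direction. The genes higher in resistant cells divided into 313 standing, 584 drug-dependent, 19 both and 296 neither. Those lower divided into 939 standing, 419 drug-dependent, 82 both and 405 neither. Thus 49.8% of the higher genes and 27.2% of the lower genes were drug-dependent, and 27.4% and 55.3% were standing. The genes in neither class had median log2 differences of 1.42 (higher) and -1.43 (lower) under 5-FU and of 0.73 and -0.72 under uracil, and so lay between the other classes.

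**Figure D1:**
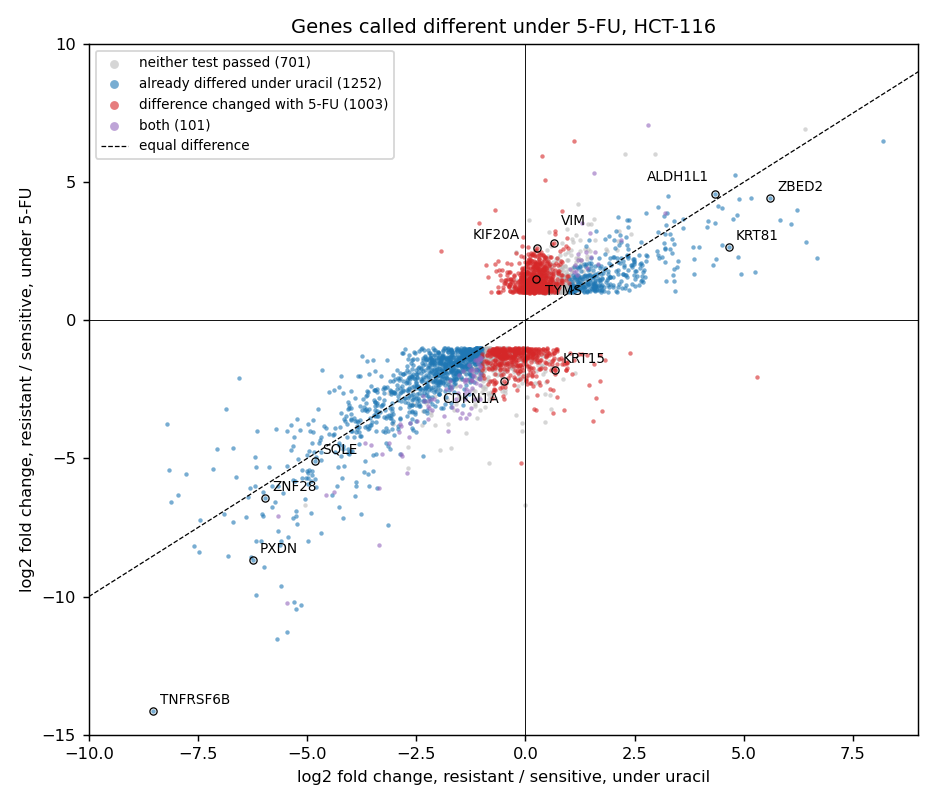
Log2 fold change of resistant over sensitive HCT-116 cells under uracil (x axis) and under 5-FU (y axis) for the 3057 genes called under 5-FU, each point 1 gene, coloured by class. Standing genes lie along the dashed line of equal difference, and drug-dependent genes form 2 bands near 0 on the x axis. Values of genes near 0 counts in 1 group, such as TNFRSF6B, are set by the fit's prior count and are no measured fold.

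In the drug-dependent genes the sensitive cells moved. Over the 603 drug-dependent genes that were higher in resistant cells, the median log2 change with 5-FU was -1.25 in sensitive cells, with 5th and 95th percentiles of -2.13 and -0.55, and 0.00 in resistant cells, with percentiles of -0.14 and 0.32. The resistant change lay within 0.5 of 0 for 585 of the 603 genes. Over the 501 drug-dependent genes that were lower, the medians were 1.05 in sensitive and -0.03 in resistant cells, and the resistant change lay within 0.5 of 0 for 445. Both responses are terms of the interaction that defined these genes, so the medians are a description.

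The irradiated sensitive libraries were not used to define the class. They held 462 of the 603 higher genes (76.6%) called as fallen against uracil, where 3.9% of all genes fell, and 260 of the 501 lower genes (51.9%) called as risen, where 4.48% of all genes rose. Both counts share the sensitive uracil libraries with the interaction. The interaction recomputed with the irradiated libraries passed in the same direction for 550 of the 603 higher and 317 of the 501 lower genes, with 17.4% and 8.73% of all genes passing. It shares all 6 uracil libraries with the interaction that defined the class, so it is no independent test. In the 313 higher and 939 lower genes that were standing alone, the median sensitive change with 5-FU was 0.22 and -0.08. Members moved both ways, with 5th and 95th percentiles of -0.68 and 1.61 in the higher and -1.09 and 0.87 in the lower genes, and 58.1% and 64.5% lay within 0.5 of 0. An interaction that did not pass in the same direction is part of this class's definition, so these values too are a description.

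**Figure D2:**
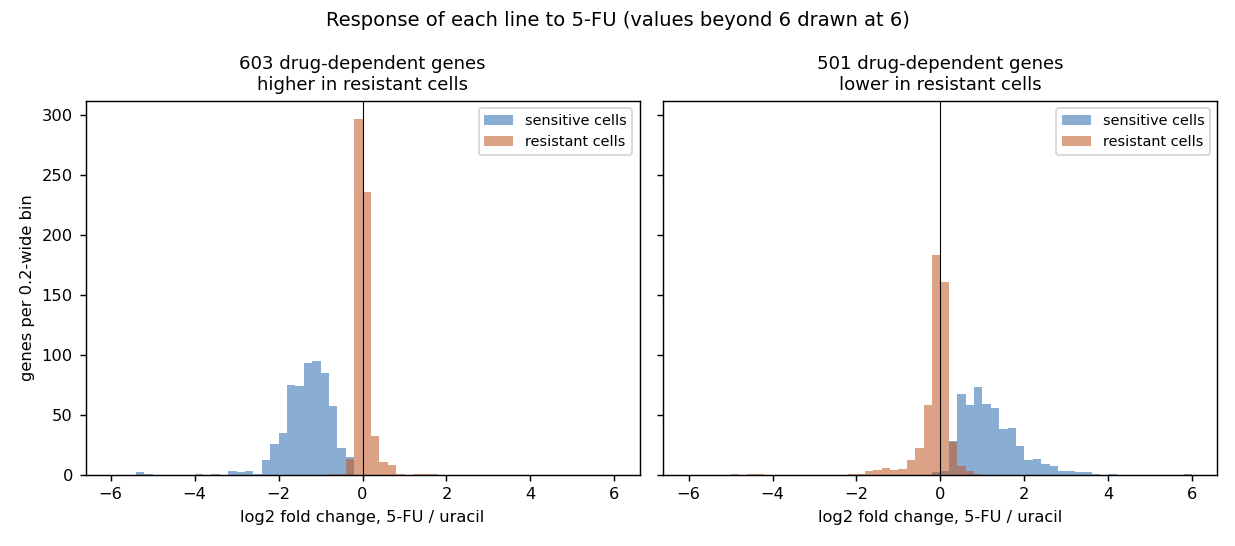
Histograms of the log2 fold change of 5-FU over uracil in sensitive and in resistant HCT-116 cells for the 603 drug-dependent genes that were higher (left) and the 501 that were lower (right) in resistant cells, in bins of 0.2. The resistant values stand around 0 (medians 0.00 and -0.03) and the sensitive values to the left and to the right of them (medians -1.25 and 1.05).

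Genes of G2 phase and mitosis formed the most uniform group. Of 30 tested, 29 were higher in resistant cells under 5-FU and none lower, against 5.28% and 8.03% of all genes. Their median log2 difference was 2.08 against -0.02 over all genes. All 29 were drug-dependent. Under uracil none of the 30 was called higher and 1 was lower, with a median of 0.24. Without the fold threshold 20 were higher and 2 lower under uracil, where 3768 of all genes were higher and 5665 lower, so most already differed there by a small amount. In the sensitive cells all 30 fell with 5-FU, against 3.36% of all genes, with a median of -1.80. The resistant median was 0.00.

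KIF20A, a kinesin needed for cytokinesis, stood at 11.8, 12.2 and 11.3 TPM in the 3 sensitive and at 76.0, 74.7 and 76.0 TPM in the 3 resistant libraries under 5-FU. The groups did not overlap, and under uracil the means were 56.0 TPM in sensitive and 72.3 TPM in resistant cells. Its log2 difference under 5-FU was 2.63 (standard error 0.056, edgeR quasi-likelihood, Benjamini-Hochberg adjusted p = 9.3e-20). DLGAP5, a spindle protein, was measured at 17.6, 16.5 and 15.1 TPM in sensitive and 101, 97.3 and 97.4 TPM in resistant cells, and HMMR, another spindle-associated protein, at 9.69, 11.7 and 13.3 TPM against 64.7, 64.2 and 63.5 TPM. Neither overlapped, and their log2 differences were 2.53 (SE 0.052) and 2.42 (SE 0.063). CCNB1, the mitotic cyclin, read 76.5, 80.3 and 86.0 TPM in sensitive and 433, 431 and 407 TPM in resistant cells. Its partner kinase CDK1 read 55.2, 57.8 and 54.9 against 185, 181 and 176 TPM. For both, the resistant libraries under uracil (means 411 and 182 TPM) stood near those under 5-FU, and the sensitive libraries under uracil (312 and 161 TPM) stood well above those under 5-FU.

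The exception in the group was CDC25C, a phosphatase that activates CDK1. It was 17.3 TPM in sensitive and 2.25 TPM in resistant cells under uracil, a log2 difference of -3.04. With 5-FU the sensitive libraries came down to 3.01, 2.70 and 2.94 TPM, while the resistant read 2.17, 2.83 and 1.95 TPM and overlapped with them (log2 difference -0.58, not called).

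The promoters of these genes are shown because the group moved together. Of the 30 genes, 25 matched an entry in the RefSeq promoter set (GRCh38.p14), and the 250 bases before the gene start were searched on both strands for the core of the cell cycle homology region at which DREAM binds (TTTGAA), for the NF-Y box (CCAAT) and for an E2F site (TTTGGCGC). The homology region core was found in 16 of the 25 (64.0%) and the NF-Y box in 21 (84.0%), against 16.1% and 37.0% of all 27305 genes with a promoter there and 12.5% and 40.5% of the 13301 matched tested genes. Of 26 matched replication genes, 0 held the homology region core, 15 held the NF-Y box (57.7%) and 5 held the E2F site (19.2%, against 0.681% of all). Over the matched drug-dependent genes that were higher in resistant cells, 23.2% of 439 held the homology region core and 56.9% the NF-Y box. In the standing higher genes these were 15.5% and 33.1% of 148. The 120 bases before the start are printed 5′ to 3′ on the gene's strand for 4 mitotic and 2 replication genes. Each of the 4 mitotic genes has both the homology region core and the NF-Y box in that window and a single promoter entry. They had the largest differences among the mitotic genes that met these conditions. The 2 replication genes hold the E2F site in that window. They are examples, and other replication genes may hold it there too. Capitals mark the 3 motifs on either strand. Motifs may share bases, as where an NF-Y box overlaps its own reverse complement.
DLGAP5, chr14:55191586-55191705, minus strand: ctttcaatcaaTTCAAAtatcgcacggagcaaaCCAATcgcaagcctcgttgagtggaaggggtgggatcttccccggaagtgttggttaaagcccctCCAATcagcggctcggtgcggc
HMMR, chr5:163460512-163460631, plus strand: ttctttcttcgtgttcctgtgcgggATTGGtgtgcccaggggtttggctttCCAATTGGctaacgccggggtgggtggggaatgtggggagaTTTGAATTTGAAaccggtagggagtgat
PLK1, chr16:23678769-23678888, plus strand: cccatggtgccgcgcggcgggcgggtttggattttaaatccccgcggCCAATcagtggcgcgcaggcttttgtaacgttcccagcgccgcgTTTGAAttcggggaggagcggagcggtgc
CCNB2, chr15:59105026-59105145, plus strand: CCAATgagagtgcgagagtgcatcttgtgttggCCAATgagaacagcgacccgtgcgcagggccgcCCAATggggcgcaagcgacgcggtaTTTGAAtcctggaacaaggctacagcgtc
E2F1, chr20:33686386-33686505, minus strand: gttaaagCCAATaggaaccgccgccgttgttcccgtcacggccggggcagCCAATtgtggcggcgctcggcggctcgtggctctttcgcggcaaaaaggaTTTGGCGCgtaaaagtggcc
POLE, chr12:132687343-132687462, minus strand: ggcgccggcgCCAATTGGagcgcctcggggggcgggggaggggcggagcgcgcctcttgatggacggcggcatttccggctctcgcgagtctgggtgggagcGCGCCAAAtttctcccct
In PLK1 and CCNB2 the homology region core began 29 bases before the start, and in HMMR 2 copies began 28 and 22 bases before it. PLK1, the polo-like kinase of mitosis, was 29.6, 31.2 and 30.5 TPM in sensitive and 154, 149 and 161 TPM in resistant cells under 5-FU, and CCNB2, a second mitotic cyclin, 21.0, 21.9 and 20.4 against 109, 111 and 103 TPM. Neither gene's groups overlapped. E2F1, which encodes a transcription factor of S phase entry, and POLE, the leading-strand DNA polymerase, differed by 1.34 and 1.12 on the log2 scale. A match is a description of these letters and not a tested binding site.

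DNA replication and G1/S genes showed the same arrangement at a smaller size. Of 30 tested, 25 were higher in resistant cells under 5-FU and none lower, against 5.28% and 8.03% of all genes. Their median was 1.38, and all 25 were drug-dependent. None reached the 2-fold threshold under uracil, where the median was 0.24, and without that threshold 18 were higher and 1 lower. In sensitive cells 22 fell with 5-FU, against 3.36% of all genes. POLA2, a subunit of DNA polymerase alpha, was 5.20, 6.23 and 5.48 TPM in sensitive and 23.1, 26.4 and 25.5 TPM in resistant libraries. MCM7, a subunit of the replicative helicase, was 104, 106 and 106 against 294, 290 and 298 TPM. Both sets of libraries stood apart, with log2 differences of 2.11 (SE 0.081) and 1.69 (SE 0.038). GINS4, a further helicase component, differed by 1.68 (SE 0.060). The 5 members without a call were MCM3, MCM6, CCNE1, CCNE2 and E2F2. MCM6 was 51.4, 54.6 and 52.97 TPM against 92.2, 91.2 and 91.6 TPM (log2 difference 0.73).

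Among 40 tested genes of 5-FU metabolism, thymidylate synthesis and deoxynucleotide supply, 5 were higher and 2 lower, against 5.28% and 8.03% of all genes. Among the 5 higher genes were TYMS, TK1, RRM1 and RRM2, which make or salvage deoxynucleotides and are used in S phase, and all 5 were drug-dependent. TYMS, the target of 5-FU, was 126, 127 and 122.9 TPM in sensitive and 362, 349 and 348 TPM in resistant cells. Its level did not overlap between the lines, the log2 difference was 1.51 (SE 0.044), and under uracil the means were 294 and 364 TPM, a difference of 0.24. RRM2, a ribonucleotide reductase subunit, was 111, 113 and 114 against 394, 395 and 378 TPM. The resistant RRM2 mean under uracil, 382 TPM, lay near the level under 5-FU, and the sensitive mean under uracil, 303 TPM, lay far above the sensitive level under 5-FU.

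The enzymes that activate or degrade 5-FU varied. TK1, thymidine kinase, which also activates the deoxynucleoside form of 5-FU, was 88.4, 88.3 and 93.3 TPM in sensitive and 296, 278 and 285 TPM in resistant cells, a log2 difference of 1.635. UMPS, which converts 5-FU to its nucleotide, was 44.2, 41.4 and 45.3 TPM in sensitive and 47.7, 47.4 and 52.9 TPM in resistant cells, with a log2 difference of 0.04 (SE 0.046). UPP1, a uridine phosphorylase, differed by 0.24 (SE 0.074). DPYD, which degrades 5-FU, was 0.564, 0.613 and 0.829 against 1.40, 1.25 and 1.06 TPM, a log2 difference of 0.80 that did not reach 2-fold. Its adjusted p was 0.000107 (edgeR quasi-likelihood, Benjamini-Hochberg), and its interaction of 0.76 passed, with a change of -0.68 in sensitive and 0.08 in resistant cells. The drug efflux pump gene ABCB1 was lower, at 1.27, 1.56 and 1.25 TPM in sensitive and 0.00, 0.0775 and 0.121 TPM in resistant cells, and the difference was also present under uracil (log2 -5.32). The other gene called lower, the transporter ABCC11 (log2 difference -1.09), lost its call without resistant 5-FU replicate 3, which left 1 of the 40 lower.

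Direct p53 target genes went the other way. Of 29 tested, 10 were lower in resistant cells under 5-FU and none higher, against 8.03% and 5.28% of all genes. Their median log2 difference was -0.79. The 10 were CDKN1A, MDM2, TP53I3, BAX, BBC3, GDF15, ZMAT3, BTG2, PLK3 and TP53INP1, and 9 of them were drug-dependent. The interaction term passed as lower for 24 of the 29, against 11.4% of all genes. Without a fold threshold, 26 of the 29 rose with 5-FU in sensitive cells and 0 in resistant cells, with medians of 0.59 and 0.00. Of all 22975 genes, 4045 and 0 did so.

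CDKN1A, the p21 inhibitor of cyclin-dependent kinases, was 676, 658 and 657 TPM in sensitive and 159, 158 and 151 TPM in resistant cells under 5-FU. The resistant libraries were also below all sensitive libraries of the uracil control, whose mean was 220 TPM, and the resistant uracil mean was 162 TPM. The log2 difference was -2.20 under 5-FU (SE 0.062, edgeR quasi-likelihood, Benjamini-Hochberg adjusted p = 5.6e-18) and -0.49 under uracil, and the interaction was -1.71. TP53I3, an oxidoreductase gene induced by p53, was 58.8, 58.4 and 58.6 against 18.5, 18.03 and 21.4 TPM, with uracil means of 18.4 and 18.9 TPM. BTG2, an antiproliferative gene, was 40.5, 40.8 and 41.1 against 12.9, 13.1 and 12.03 TPM. In these genes too the sensitive libraries under 5-FU stood above all uracil libraries and the resistant 5-FU libraries. MDM2, the ubiquitin ligase that degrades p53, was 193, 188 and 179 TPM in sensitive and 99.0, 107 and 89.5 TPM in resistant cells, and its log2 difference of -1.02 lay at the threshold and lost its call in 13 of 25 alternatives. GDF15, a stress cytokine and the only standing member, was 784, 756 and 766 against 349, 341 and 357 TPM and already differed under uracil (log2 -1.04). Its resistant uracil libraries were uneven, at 195, 204 and 361 TPM, and replicate 3 stood at the resistant 5-FU level. The sensitive mean under uracil was 506 TPM. The resistant change with 5-FU was 0.42 on the log2 scale and did not pass the test.

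With irradiation after 5-FU, CDKN1A reached a mean of 267 TPM in resistant and 741 TPM in sensitive cells. Against uracil the resistant rise was 0.68 on the log2 scale (SE 0.060), and without a fold threshold 23 of the 29 p53 targets were higher in irradiated resistant cells, against 564 of all genes. With the fold threshold 15 genes passed in that comparison (0.0653%), none of them from this list. That comparison was added after the data had been seen.

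**Figure D3:**
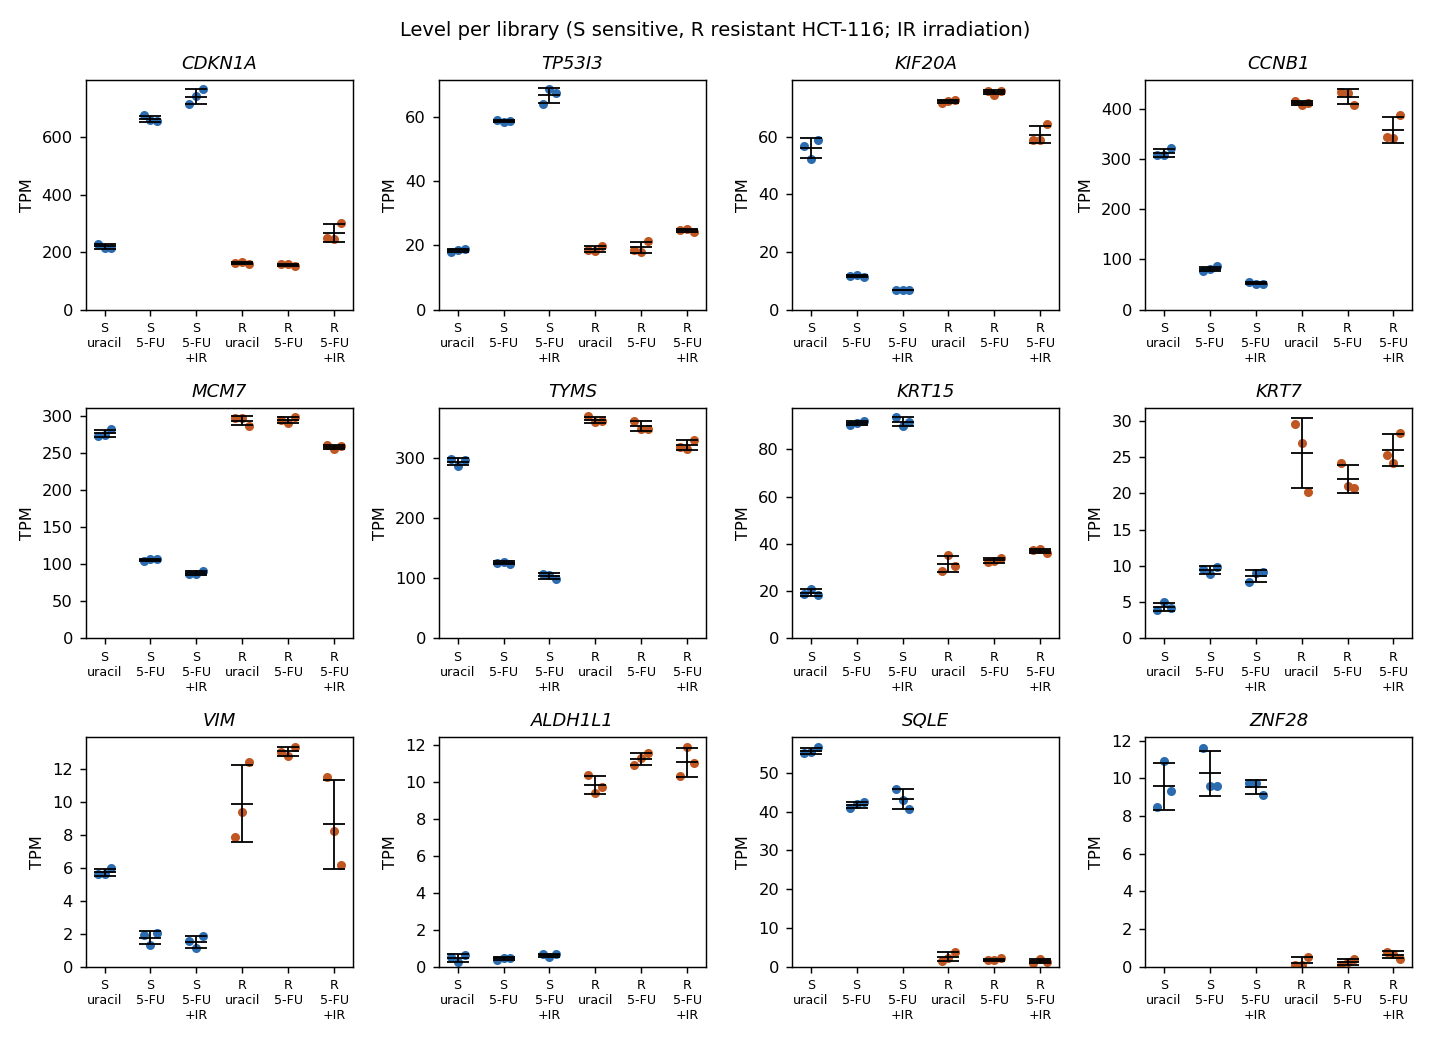
Level in TPM of 12 genes in each of the 18 HCT-116 libraries, by line and treatment, with points for libraries and bars for the mean and SD of 3. CDKN1A, TP53I3, KIF20A, CCNB1, MCM7, TYMS and KRT15 change with 5-FU in the sensitive cells and stand at similar levels under uracil and 5-FU in the resistant cells, whereas ALDH1L1, SQLE and ZNF28 differ between the lines under every treatment.

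Other drug-dependent genes with large differences were of several kinds. VIM, the intermediate filament protein vimentin, was 1.94, 1.30 and 2.04 TPM in sensitive and 13.03, 12.8 and 13.3 TPM in resistant cells, a log2 difference of 2.80 against 0.64 under uracil. PIF1, a DNA helicase, was 5.67, 5.96 and 4.46 against 32.7, 31.8 and 32.0 TPM, and the pseudogene TCAM1P 1.13, 1.90 and 1.54 against 8.91, 10.7 and 10.6 TPM. The sensitive libraries of all 3 genes were lower under 5-FU than under uracil, where the means were 5.73, 13.9 and 4.97 TPM. Among the lower genes, HIST1H2BD, a histone H2B gene, was 36.6, 35.9 and 36.2 against 8.06, 7.12 and 8.89 TPM, with uracil means of 7.18 and 7.96 TPM. Histone H2B genes are near copies of each other, so the estimated counts of HIST1H2BD may be shared among them. AHNAK2, a large scaffold protein, was 33.0, 31.3 and 33.7 against 6.501, 6.73 and 7.17 TPM. KLK7, a secreted protease, was 27.9, 25.2 and 25.1 against 5.71, 5.74 and 5.98 TPM, and AADAC, a deacetylase, 20.2, 19.98 and 20.9 against 4.75, 4.02 and 4.44 TPM. In each of these the sensitive mean under uracil stood between 4.73 and 9.76 TPM, below all 3 sensitive libraries under 5-FU.

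The largest differences that were higher in resistant cells were mostly present under uracil too. ALDH1L1, a folate enzyme that oxidises 10-formyltetrahydrofolate, was 0.356, 0.489 and 0.483 TPM in sensitive and 10.9, 11.3 and 11.5 TPM in resistant cells, and its log2 difference was 4.57 under 5-FU (SE 0.11, edgeR quasi-likelihood, Benjamini-Hochberg adjusted p = 6.2e-19) and 4.35 under uracil. ZBED2, a transcription factor gene, was 1.74, 1.93 and 1.76 against 40.9, 40.2 and 41.7 TPM, and its difference was smaller under 5-FU (4.42) than under uracil (5.61), with an interaction of -1.18. VSNL1, a neuronal calcium sensor, was 3.44, 2.73 and 2.91 against 54.2, 55.6 and 55.2 TPM, and GREB1L, a gene related to GREB1, 2.17, 2.29 and 2.13 against 16.1, 16.4 and 16.1 TPM. Both were standing and drug-dependent, with interactions of 0.71 and 0.71. The mitochondrial valine tRNA gene MT-TV was 1.71, 13.6 and 0.00 against 28.8, 59.9 and 51.2 TPM, an uneven level in both groups with a log2 difference of 2.78 (SE 0.70), and it lost its call without sensitive 5-FU replicate 1. The difference was 5.26 without sensitive 5-FU replicate 2. Of the 10 largest, 1 carries only a clone name.

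The largest differences that were lower in resistant cells were also mostly standing. PXDN, a peroxidase of the extracellular matrix, was 12.1, 12.4 and 11.6 TPM in sensitive and 0.409, 0.207 and 0.314 TPM in resistant cells. The log2 difference fitted on counts was -8.68 (SE 0.40), and the log2 ratio of the mean TPM was -5.28, so its size depends on the scale. GPAT2, a glycerol-3-phosphate acyltransferase, was 19.8, 18.7 and 17.6 against 0.109, 0.0985 and 0.273 TPM. SQLE, squalene epoxidase of cholesterol synthesis, was 40.9, 42.0 and 42.5 against 1.59, 1.63 and 2.13 TPM, a log2 difference of -5.08 under 5-FU and -4.83 under uracil. In all 3 genes the uracil libraries showed the same gap. CSTA, a protease inhibitor, was 13.7, 15.6 and 14.7 against 0.379, 0.487 and 0.768 TPM, and ID2, an inhibitor of basic helix-loop-helix factors, 81.4, 81.9 and 80.6 against 3.38, 3.71 and 3.34 TPM. KIAA0040 differed by -4.77. SUSD2, a membrane protein, and ARRDC4, an arrestin-domain protein, were standing and drug-dependent. SUSD2 was 30.9, 30.3 and 32.1 against 1.15, 1.03 and 1.09 TPM, and in sensitive cells it had been 8.98 TPM under uracil, so the difference grew from -2.84 to -4.84. Of the 10 largest lower genes, 1 carries only a clone name.

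A further 168 of the genes called lower had at most 3 counts in every resistant 5-FU library, and 46 of those called higher had at most 3 in every sensitive 5-FU library. TNFRSF6B, a soluble decoy receptor for FAS ligand, was 45.3, 43.5 and 47.3 TPM in sensitive cells and 0 TPM in all 3 resistant libraries under 5-FU. Against a floor of 3 counts per library it was at least 687-fold lower. The gene overlaps a neighbouring gene on chromosome 20, and the split of reads between them is an estimate. ZNF84, a zinc finger gene, was at least 309-fold lower, and SUSD3, a membrane protein gene, at least 97.9-fold lower. The 3 of the higher genes with the largest level carry only clone or LINC names.

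The KRAB zinc finger genes that the study measured by qPCR were chosen from those lower in its RNA-seq. They are therefore no independent evidence of direction. Of 15 tested, 13 were lower under 5-FU and 12 under uracil, against 8.03% and 6.8% of all genes. Their median log2 difference was -4.85 under 5-FU, and it stayed -4.85 with ZNF613, the member near 0 counts, at its bound of at least 30.2-fold. In the sensitive response to 5-FU 0 of 15 were called, with a median of -0.03. ZNF28 was 11.6, 9.58 and 9.59 TPM in sensitive and 0.0812, 0.224 and 0.399 TPM in resistant cells under 5-FU, ZNF468 8.37, 8.67 and 8.14 against 0.627, 0.712 and 0.298 TPM, and ZNF649 1.84, 1.84 and 1.81 against 0.0512, 0.00 and 0.0738 TPM. None of the 3 overlapped, and their log2 differences were -6.44, -7.07 and -5.45. For ZNF468 the log2 ratio of the mean TPM was -3.94. ZNF28 lies at chr19:52797408-52857600 and ZNF649 at chr19:51889235-51905040 (GRCh38, GENCODE v44). ZNF182 and ZFP69B were not called.

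In keratins the difference between the lines shifted toward lower resistant values under 5-FU, which narrowed it in some genes and opened it in others. Their summed level was 2536 to 2761 TPM in sensitive and 2653 to 2930 TPM in resistant cells under uracil, and 4643 to 4745 against 2584 to 2695 TPM under 5-FU. Of 18 keratin genes tested, 9 were higher in resistant cells under uracil and none lower, against 4.17% and 6.8% of all genes. Under 5-FU 5 were higher and 3 lower, against 5.28% and 8.03% of all genes. The interaction passed as lower for 10 and as higher for none, against 11.4% and 18.3% of all genes. With 5-FU 8 rose in sensitive cells, against 4.79% of all genes. KRT7, KRT80, KRT81, KRT86 and KRT34 stayed higher. KRT81, a hair keratin, was 2.47, 2.43 and 2.66 TPM in sensitive and 18.1, 16.1 and 15.2 TPM in resistant cells under 5-FU, a log2 difference of 2.65, down from 4.66 under uracil, where the sensitive mean was 0.826 TPM. KRT86 differed by 2.67 under 5-FU and 3.98 under uracil. KRT81 and KRT86 are near copies, so how the estimated counts split between them is uncertain. KRT7, a simple-epithelium keratin, was 9.57, 8.87 and 9.87 against 24.2, 21.0 and 20.7 TPM.

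KRT15, KRT18 and KRT8 were lower in resistant cells under 5-FU and not lower by the threshold under uracil. KRT15 was 90.2, 91.2 and 92.2 TPM in sensitive and 32.2, 32.6 and 34.1 TPM in resistant cells. Under uracil it stood at 19.3 and 31.6 TPM, so its log2 difference was 0.68 there and -1.80 under 5-FU. KRT18 was 1117, 1122 and 1153 TPM in sensitive and 540, 510 and 528 TPM in resistant cells, and KRT8 differed by -1.02, at the threshold, and lost its call in 13 of 25 alternatives. These 2 genes, with CDH1, were the 3 of 7 epithelial identity genes called lower.

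**Figure D4:**
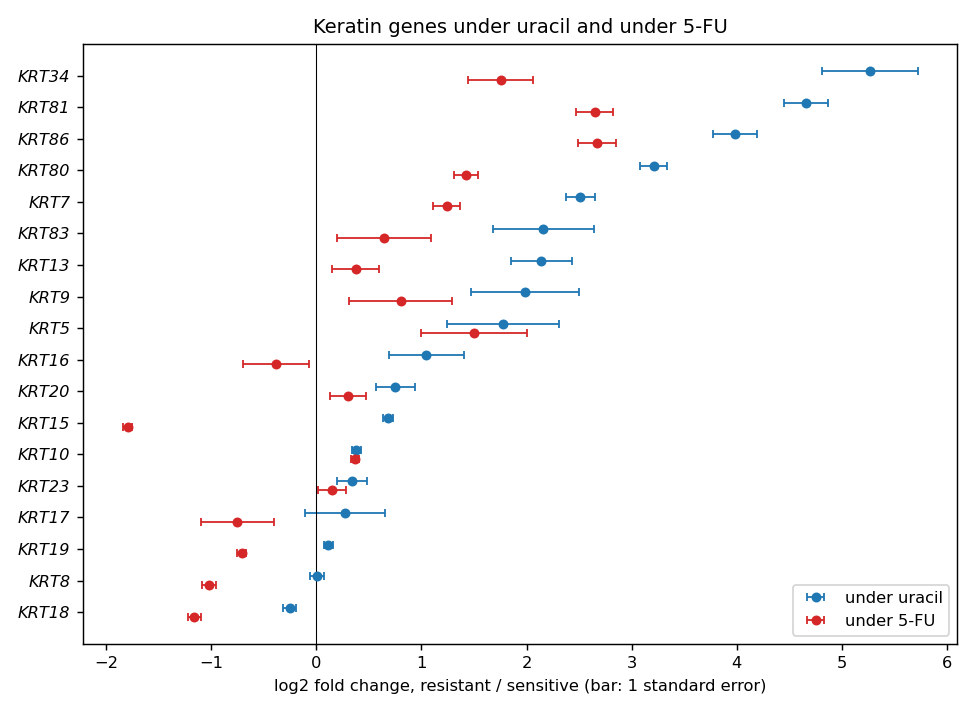
Log2 fold change of resistant over sensitive HCT-116 cells for 18 keratin genes under uracil and under 5-FU, with bars of 1 standard error. Most 5-FU points lie to the left of the uracil points, and those of KRT15, KRT18 and KRT8 lie below -1.

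Genes of the epithelial-mesenchymal transition did not move as a group. Of 31 tested, 3 were higher (VIM, ZEB1 and AXL) and 9 lower under 5-FU, against 5.28% and 8.03% of all genes. CDH1, the adherens junction cadherin, was 33.1, 34.7 and 34.1 TPM in sensitive and 6.68, 7.84 and 7.68 TPM in resistant cells, a log2 difference of -2.03 that was -1.95 under uracil. GRHL2, an epithelial transcription factor, was 5.99, 6.45 and 5.94 against 1.40, 0.795 and 1.89 TPM. Both were standing, and neither overlapped. SPARC, a secreted matrix protein usually counted with the mesenchymal genes, was lower, at 3124, 3218 and 3234 against 869, 856 and 911 TPM. MMP9 was near 0, at 0.134, 0.231 and 0.237 against 0.0605, 0.0601 and 0.0317 TPM. The fibroblast list's COL1A1 was also lower (log2 difference -1.42).

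Of 19 WNT target and intestinal stem genes tested, 6 were lower and 2 higher, against 8.03% and 5.28% of all genes. Their median was -0.90, and the lower calls numbered 4 to 6 with each library left out. Without the fold threshold 13 were lower and 2 higher, against 5649 and 5081 of all 22975 genes. RNF43, a ubiquitin ligase that removes WNT receptors, was 12.3, 11.8 and 13.5 TPM in sensitive and 1.12, 0.759 and 1.02 TPM in resistant cells, and EPHB2, an ephrin receptor of crypt cells, 13.3, 12.8 and 13.1 against 2.94, 3.38 and 3.15 TPM. Both were standing. NOTUM, a secreted WNT inhibitor, was the drug-dependent exception, at 6.55, 6.33 and 6.17 against 25.1, 23.7 and 26.1 TPM.

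Interferon-stimulated genes divided into 4 higher and 8 lower of 34, where 5.28% and 8.03% of all genes were called. IFIH1, an RNA sensor, differed by -1.83 and was standing, TRIM22 by -2.001 and was drug-dependent, and OAS1, at most 0.743 TPM in any of the 6 libraries, by -2.86. The resistant TRIM22 libraries were uneven, at 0.376, 2.11 and 0.418 TPM against 2.74, 2.48 and 2.32 TPM in sensitive cells. Of 31 cholesterol and fatty acid synthesis genes 5 were higher and 1, SQLE, was lower. INSIG1, a sterol sensor partner, was 7.07, 7.57 and 7.69 against 24.0, 22.0 and 24.2 TPM and was drug-dependent. Its resistant uracil libraries were uneven, at 42.6, 42.5 and 23.0 TPM, and replicate 3 stood at the resistant 5-FU level. Its resistant change with 5-FU was -0.635 on the log2 scale and did not pass the test.

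Of 23 genes of the BCL2 family, death receptors and decoys, 5 were lower and none higher, against 8.03% and 5.28% of all genes. CASP10, an initiator caspase of death receptors, was 2.62, 2.35 and 3.15 TPM in sensitive and 0.379, 0.5005 and 0.370 TPM in resistant cells, and was standing. TNFRSF10C, a decoy receptor, and HRK, a proapoptotic BH3 protein, were drug-dependent, with differences of -1.36 and -1.35. Among 9 mismatch repair genes, EXO1, an exonuclease, was higher (log2 difference 1.18, drug-dependent) and MLH3, a mismatch repair protein, was lower (-1.31, standing).

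The remaining lists held few calls, where 5.28% of all genes were called higher and 8.03% lower. Of 25 ATF4 and amino acid stress genes, SLC7A11, the cystine transporter, was higher (8.10, 7.34 and 6.82 against 25.1, 26.5 and 24.2 TPM) and DDIT4, an inhibitor of mTORC1, was lower (303, 301 and 304 against 140, 149 and 155 TPM). Of 24 EGFR ligand and MAPK feedback genes, 2 were higher and 2 lower, among them EGF (1.93), SPRY2 (1.15) and SPRY1 (-1.57). Of 33 ribosome biogenesis and exosome genes only EXOSC8 was called (1.08), of 21 antigen presentation genes only TAPBPL (1.504), and of 19 NF-kB targets only CSF2 (2.64) and TRAF1 (-1.40). CSF2, at most 0.901 TPM, lost its call without resistant 5-FU replicate 1 (0 of 19 then higher). Of 10 intestinal differentiation genes HNF4A was higher, at most 0.205 TPM, and CEACAM1 lower (-1.72). PTPRC of the leukocyte list was called higher at no more than 0.525 TPM, and it lost its call when resistant replicate 1 or 2 or sensitive replicate 2 under 5-FU was left out. None of the 5 endothelial genes tested was called.

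**Figure D5:**
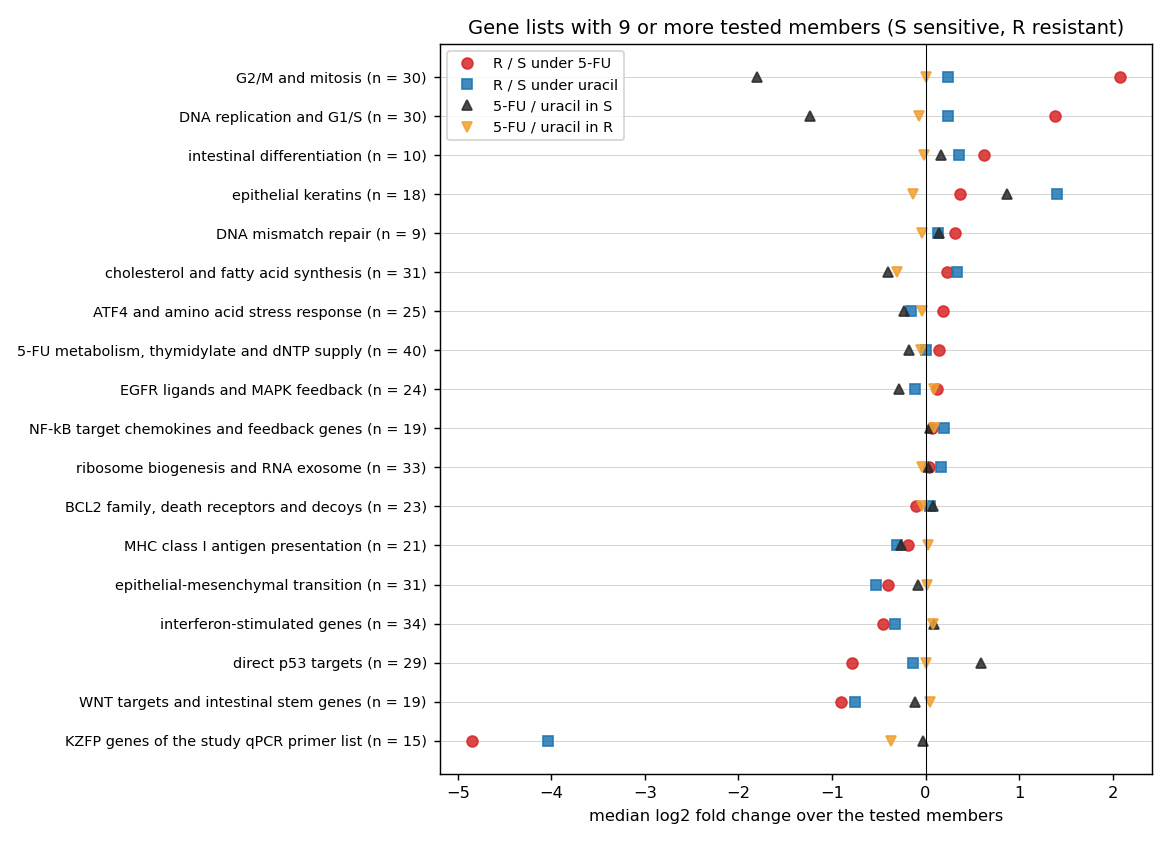
Median log2 fold change over the tested members of each gene list with 9 or more tested members, for resistant over sensitive cells under 5-FU and under uracil and for 5-FU over uracil in each line. The sensitive response is farthest from 0 for G2/M (-1.80) and replication (-1.23) genes, and the resistant response lies between -0.37 and 0.09 for every list drawn.

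With irradiation after 5-FU the difference between the lines kept its direction in most genes. Of the 1212 higher genes 964 (79.5%) and of the 1845 lower genes 1273 (69.0%) were called the same way in the irradiated libraries, where 5.72% and 6.14% of all genes were called, and 0 were called the opposite way. The drug-dependent genes that were higher had a median difference of 1.43 under 5-FU and 1.47 with irradiation, and those that were lower -1.42 and -1.11. These libraries share no sample with the 5-FU libraries.

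The DLD-1 line of the series, whose resistant cells were made the same way, was set beside HCT-116. Of 20264 genes tested in both lines, 66 were higher in resistant cells under 5-FU in both. These were 6.38% of the HCT-116 list and 8.63% of the DLD-1 list. A further 158 were lower in both, 11.2% and 18.3%. Among these 20264 genes, 1034 were called higher and 1414 lower in HCT-116, and 765 and 862 in DLD-1. Over all genes tested in DLD-1, 3.88% were called higher and 5.23% lower. None of the 30 mitotic or 30 replication genes was called in DLD-1 under 5-FU, where their medians were -0.16 and 0.09, and the test of the difference between the lines passed with HCT-116 higher for 29 of each list. For the p53 targets it passed with HCT-116 lower for 22 of 29. Over all genes it passed for 16.1% as higher and 22.4% as lower in HCT-116.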

How the data were processed

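RNA-seq of poly(A) libraries was used as deposited. The authors trimmed reads with Trimmomatic 0.36, checked them with FastQC 0.11.8, quantified transcripts with kallisto 0.44.0 against GRCh38.p13 and summed them per gene. The deposited tables hold estimated counts, not normalized, and TPM, which the authors' tool scaled by length and library total.

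Estimated counts were rounded to whole numbers. Genes were filtered with filterByExpr, scaled by TMM and fitted with edgeR 4.0.16 (R 4.3.3) over the 18 HCT-116 libraries in 6 groups, with 12 residual degrees of freedom. p-values were Benjamini-Hochberg adjusted over all 22975 genes tested. Calls needed an adjusted p of at most 0.01 and a 2-fold change, the interaction only the adjusted p. TPM served for levels. The fit was tested on simulated data. Replicates correlated at 0.9907 to 0.9935, and no pair agreed within sampling noise. DESeq2 1.42.0, other scalings, filters, thresholds, a replicate block and each library left out were the alternatives.

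Of the estimated counts, 60.3% were whole. Standard errors were derived from the log2 fold change and its F statistic in the edgeR fit, and so include the spread between replicates. Floors cover counting error only.

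The genes named were the 10 largest differences in each direction at 10 TPM or more in 1 group without overlap, the 5 largest standing and drug-dependent genes in each direction, the 3 largest called members of each list, the 3 highest genes near 0 counts in the other group, and CDKN1A, MDM2, TYMS, CCNB1, CDK1 and ZNF649. Some genes that this rule names are not reported here. Others named were chosen after their values were seen. The members and lists were chosen with earlier results of these data known. In the lists, 4 symbols were matched by an older name.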

Additional observations from a re-analysis of the deposited data

Results flagged for a closer look

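The response to 5-FU differed between the resistant and the sensitive cells for 4196 genes with the resistant response higher and 2618 with it lower (edgeR quasi-likelihood interaction term, Benjamini-Hochberg adjusted p of at most 0.01). The difference between the resistant and the sensitive line under 5-FU was itself different between HCT-116 and DLD-1 for 3987 genes with HCT-116 higher and 5551 with it lower by the same kind of test.

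The genes named below passed the interaction test, and each value is the log2 change with 5-FU in resistant cells minus that in sensitive cells. The cell cycle and other genes with a higher resistant value began with HMMR (2.64), KIF20A (2.36), DLGAP5 (2.30), VIM (2.16), CCNB1 (2.02), POLA2 (1.90), PIF1 (1.75) and TCAM1P (1.74). Positive values of smaller size were those of MCM7 (1.66), CDK1 (1.52), GINS4 (1.48), NOTUM (1.31), RRM2 (1.30), TYMS (1.27) and INSIG1 (1.13). Next came EXO1 (0.96), EXOSC8 (0.77), GREB1L (0.71), VSNL1 (0.71), SPRY2 (0.66), SLC7A11 (0.65) and DDIT4 (0.48). 

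Negative values, where the sensitive cells rose more or the resistant cells fell more, were those of ZNF84 (-4.79), KRT15 (-2.48), HIST1H2BD (-2.34), TRIM22 (-2.25), KRT81 (-2.01), SUSD2 (-2.001), TP53I3 (-1.85) and AADAC (-1.80). Smaller negative values were those of CDKN1A (-1.71), AHNAK2 (-1.59), CEACAM1 (-1.57), KLK7 (-1.43), ZNF468 (-1.41), MDM2 (-1.34), KRT86 (-1.31) and ZBED2 (-1.18). Below these came KRT8 (-1.03), TNFRSF10C (-0.99), HRK (-0.97), BTG2 (-0.92), KRT18 (-0.91), ARRDC4 (-0.76) and COL1A1 (-0.32). ZNF84 had at most 3 counts in each resistant 5-FU library, so its size depends on the fit's prior count. With 3 libraries in each group, no test for a single outlying value was run.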

How the results depend on the processing

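No result changed direction under any alternative run, and every count of calls over all genes stayed within 1.5 times except those below.

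At a log2 threshold of 2, resistant against sensitive cells gave 267 genes higher and 682 lower under 5-FU, 242 and 610 under uracil, and 350 and 521 with irradiation. The sensitive response then held 168 genes that rose and 86 that fell, and with irradiation 184 and 175. The classes became 89 standing, 104 drug-dependent, 3 both and 71 neither among the higher genes, and 409, 90, 28 and 155 among the lower. Sensitive cells under irradiation moved the opposite way for 69 higher and 28 lower drug-dependent genes. In the resistant response, where the main count was 0 in both directions, DESeq2 gave 1 gene higher, no filter on low counts gave 26 higher and 32 lower, and leaving out each library in turn gave 0 to 2 higher and 0 to 1 lower, the calls coming without resistant uracil replicate 3. Lower genes in both classes numbered 136 at an adjusted p of 0.05 and 40 with the irradiated libraries in the interaction, an alternative chosen after seeing the data. Genes that differed under uracil and not under 5-FU numbered 45 and 69 at the threshold of 2, and 396 of those higher at an adjusted p of 0.05.

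Replicate numbers did not pair the libraries, since deviations of same-numbered 5-FU libraries correlated at 0.019 to 0.022. With the replicate block, 1200 genes were higher and 1828 lower under 5-FU, the interaction and class counts stayed within 1.5 times of the main ones, and the resistant response held 0 genes.

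Of 98 called genes followed singly, 6 lost their call under any alternative other than the threshold of 2. Other list members, such as ABCC11, were followed only through their list's count. MDM2 and KRT8, both at the 2-fold threshold, did so most often. Without resistant 5-FU replicate 2 the log2 differences of ABCB1, OAS1 and ZNF28 were -7.05, -3.76 and -7.21 (-5.78, -2.86 and -6.44 with it) and that of ZNF649 -4.83 (-5.45 with it). Without sensitive 5-FU replicate 2 that of CSF2 was 3.23 (2.64 with it).

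Whether replicates came from separate selections is not stated, so differences of a selected population and of resistance cannot be told apart. Calls on genes under 1 TPM, such as CSF2 and PTPRC, were lost without single libraries. The 1212 and 1845 calls became 1186 to 1305 and 1621 to 1809 with each library left out.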

Other observations

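Some differences were larger under uracil than under 5-FU. Among genes called under uracil, 235 of 957 higher and 245 of 1562 lower in resistant cells were not called under 5-FU and had an interaction in the opposite direction. Their median log2 difference went from 1.34 to 0.04 in the higher and from -1.30 to -0.48 in the lower genes. In the irradiated sensitive cells 132 of the 235 rose and 75 of the 245 fell against uracil. The genes below were chosen after their values were seen.

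CPA4, a carboxypeptidase, was 5.27 TPM in sensitive and 40.6 TPM in resistant cells under uracil. Under 5-FU it read 49.7, 47.4 and 50.7 TPM in sensitive and 32.3, 32.0 and 34.8 TPM in resistant libraries, so the log2 difference went from 2.95 to -0.59. PLK2, a stress-induced polo-like kinase, was 20.5 and 68.3 TPM under uracil and 56.2, 57.8 and 61.4 against 68.3, 70.1 and 71.0 TPM under 5-FU. S100A4, a calcium-binding protein, went from a log2 difference of 1.80 to 0.65. Sensitive cells rose in all 3 genes and passed the resistant level in CPA4, while they stayed below it in PLK2 and S100A4. The resistant changes were -0.37, 0.00 and 0.13 on the log2 scale and did not pass the test.

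EGR1, an immediate-early transcription factor, was 69.2 TPM in sensitive cells and 5.51, 6.10 and 14.6 TPM in resistant libraries under uracil, and 16.1, 14.9 and 15.5 against 12.8, 13.9 and 14.7 TPM under 5-FU. Resistant uracil replicate 3 stood at the resistant 5-FU level, and the log2 difference under uracil was -3.03 with it and -3.62 without it. PHGDH, the first enzyme of serine synthesis, was 104 and 49.8 TPM under uracil and 31.5, 30.4 and 31.6 against 41.9, 46.0 and 41.3 TPM under 5-FU. Both genes fell in sensitive cells, by 2.17 and 1.78 on the log2 scale.

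Of the genes called under uracil, 9 that were higher and 1 that was lower were called the opposite way under 5-FU. KRTAP2-3, a hair keratin-associated protein gene, was 5.90 TPM in sensitive and 18.1 TPM in resistant cells under uracil, and 64.9, 64.7 and 66.4 against 24.4, 21.3 and 22.6 TPM under 5-FU. Its log2 difference was 1.58 and then -1.58, with an interaction of -3.17.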
